A study of Mus musculus with 48 samples.

Results

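The Toll-like receptors followed here are the 10 mouse genes Tlr1, Tlr2, Tlr3, Tlr4, Tlr5, Tlr6, Tlr7, Tlr8, Tlr9 and Tlr13, taken by symbol from the 54532 genes of a count table of the postnatal small intestine. All 10 passed the low-count filter and were tested among 21986 genes. The series was made to chart gene activity while newborn bowel is prone to necrotizing enterocolitis, and it covered 2 regions at 8 ages, which gives 16 groups, and 46 of its 48 samples were used. The duodenum samples were the 2 cm of whole-thickness bowel that follow the pylorus, and the ileum samples the 2 cm that precede the ileocecal junction. The ages were day 0, 2, 4, 6 and 8 and then week 2, 3 and 4, and each region had 3 samples at an age, or 2 at day 6. All mice were C57Bl/6J from Jackson, untreated, of both sexes, left with the dam until day 21 and fed chow afterwards, and a litter usually supplied 2 or 3 of the ages. Housing is given as "standard germ-free" in the labels, so the microbial state of the animals could not be settled. The labels number the samples 1 to 3 without saying whether each is a separate animal, or whether duodenum and ileum samples of one age and number share an animal. P-values therefore measure the spread between these samples.

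Toll-like receptors are membrane proteins that bind molecules made by microbes, or nucleic acids taken up into the cell, and start inflammatory and interferon gene programmes. Tlr1, Tlr2, Tlr4, Tlr5 and Tlr6 act mainly at the cell surface on lipopeptides, lipopolysaccharide and flagellin, while Tlr3, Tlr7, Tlr8, Tlr9 and Tlr13 act in endosomes on RNA or DNA. In the bowel they are carried by epithelial cells and by immune and stromal cells of the wall, and epithelial responses to microbes are known to change after birth.

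The promoters of 4 receptors are shown because Tlr5 fell and Tlr3 and Tlr1 rose with age in both regions, and Tlr9 rose late in the ileum. Each sequence runs 5′ to 3′ on the gene's strand from 250 bases before the RefSeq start site to 30 bases from it, on GRCm38.p6. The Tlr5 stretch is chr1:182954538-182954817 on the plus strand and the Tlr3 stretch chr8:45410351-45410630 on the minus strand. For Tlr1 it is chr5:64933529-64933808 on the minus strand, 1 of its RefSeq starts, and for Tlr9 chr9:106222348-106222627 on the plus strand. Capitals mark matches to any of 6 searched motifs.
Tlr5: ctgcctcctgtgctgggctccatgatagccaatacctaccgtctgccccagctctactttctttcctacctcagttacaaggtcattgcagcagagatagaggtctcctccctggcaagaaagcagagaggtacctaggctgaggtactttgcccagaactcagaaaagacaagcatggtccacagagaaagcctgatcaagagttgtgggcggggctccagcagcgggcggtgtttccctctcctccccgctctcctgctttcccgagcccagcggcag
Tlr3: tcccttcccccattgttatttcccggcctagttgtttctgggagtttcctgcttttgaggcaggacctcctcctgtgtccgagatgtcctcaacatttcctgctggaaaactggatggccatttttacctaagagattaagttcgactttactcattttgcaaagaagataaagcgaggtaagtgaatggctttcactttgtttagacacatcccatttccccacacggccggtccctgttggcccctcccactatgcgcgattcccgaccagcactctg
Tlr1: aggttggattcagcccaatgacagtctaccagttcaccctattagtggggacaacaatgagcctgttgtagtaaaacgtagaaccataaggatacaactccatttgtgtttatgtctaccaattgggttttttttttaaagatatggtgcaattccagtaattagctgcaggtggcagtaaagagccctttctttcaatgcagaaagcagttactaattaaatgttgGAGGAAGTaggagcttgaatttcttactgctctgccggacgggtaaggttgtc
Tlr9: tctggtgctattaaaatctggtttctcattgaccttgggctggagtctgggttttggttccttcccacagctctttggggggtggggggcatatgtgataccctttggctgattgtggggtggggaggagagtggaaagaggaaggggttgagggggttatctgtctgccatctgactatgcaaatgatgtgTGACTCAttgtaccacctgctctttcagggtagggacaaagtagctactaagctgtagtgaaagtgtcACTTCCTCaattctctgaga

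The motifs were searched on both strands of 10 windows of 300 bases that RefSeq gives for 8 of the genes, with no entry matched for Tlr4 and Tlr7. They were chosen with results for these genes in view. An interferon-response motif GAAANNGAA occurs in 8.56% of all 32851 such windows, a kB motif GGGNNTTCC in 5.82%, a PU.1 motif GAGGAAGT in 3.2%, a CDX2 motif TTTATNG in 10.9%, an HNF4 motif CAAAGTCCA in 0.475% and an AP-1 motif TGANTCA in 7.81%. The Tlr1 stretch holds the PU.1 letters, starting 23 bases before the start site, while the window of the other Tlr1 start holds none of the 6. The Tlr9 stretch holds them on the other strand just past the start site, and AP-1 letters that begin 58 bases before it. The Tlr5 and Tlr3 windows hold none of the 6. Tlr2 carries the kB letters on both strands at overlapping positions, and Tlr6 and Tlr8 carry interferon-response and CDX2 letters. A match describes the letters of the window only.

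Total estimated counts ran from 16824021 to 65042327 per sample. The day 6 samples numbered 3 were left out, because the one labelled duodenum had 0.115 library-scaled counts (CPM) of Pdx1, a gene of the proximal gut, while the one labelled ileum had 14.6 CPM. Among the samples used, 5 were set apart on such checks. Ileum day 0 sample 2 had 6.53 CPM of Pdx1, duodenum week 4 sample 2 had 1.81 CPM of it, and ileum week 4 sample 1 had 42.0 CPM of Fabp6, a bile acid carrier of the ileum, against 1265 and 1970 CPM in its group. Duodenum day 0 samples 2 and 3 were the only 2 samples with at least 10 CPM of both Xist and the Y-linked Ddx3y. Results that rest on these 5 libraries are given with and without them, an alternative chosen after seeing the data. It leaves 1 library for duodenum day 0, sample 1, which is then assumed to vary like the other groups. That library itself had 2.42 CPM of Pdx1, below the 13.0 and 25.0 CPM of samples 2 and 3, and duodenum week 2 sample 2 had 3.99, but neither is among the 5. Leaving out duodenum day 0 sample 1 alone ended no call of a receptor.

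Levels of different genes are compared per kilobase of exon, on the scale of CPM per kb. Averaged over the 16 group means, Tlr5 had 3.33 CPM per kb and Tlr3 2.49, followed by Tlr1 at 0.873 and Tlr2 at 0.691. The other 6 genes lay between 0.128 CPM per kb for Tlr6 and 0.294 for Tlr7. Low levels meant few reads: Tlr6, Tlr8 and Tlr9 were each under 1 CPM in 41 of 46 samples, whereas Tlr3 was under it in 1 sample and Tlr5 in 3. Tlr1 and Tlr6, neighbours on chromosome 5, share 607 stretches of 31 bases, 18.3% of those in Tlr1 and 16.4% of those in Tlr6. Their estimated counts depend on how the authors' quantification divided such reads, so the values of both are uncertain.

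The largest share of the receptor RNA was that of Tlr5 at birth and that of Tlr3 at week 3 and week 4. At week 3 Tlr3 made up 64.15% of the summed level per kb in the duodenum and 54.2% in the ileum. Tlr5 then made up 8.52% and 15.6%. In the duodenum at day 0 the 10 genes summed to 10.1 ± 2.25 CPM per kb (SD, n = 3), of which Tlr5 made up 64.0% and Tlr3 6.54%. In the ileum the sum was 8.51 ± 2.02 (SD, n = 3), with 77.7% from Tlr5 and 3.56% from Tlr3. At week 4 the sum was 14.0 ± 1.40 CPM per kb in the duodenum (SD, n = 3). The ileum then had 15.6 ± 3.16 (SD, n = 3). Tlr5 then contributed 1.69% and 1.21%. Tlr3 contributed 74.3% of the sum in the duodenum and 49.2% in the ileum, where Tlr1 made up a further 27.5%, Tlr2 7.74% and Tlr9 5.53%. The geometric mean ratio of Tlr3 to Tlr5 per kb went from 0.101 at day 0 to 52.2 at week 4 in the duodenum. For the ileum the same ages gave 0.0422 and 41.7. The day 8 ratio was 1.21 for the duodenum (samples from 0.934 to 1.53), where Tlr3 made up 37.5% of the sum and Tlr5 31.1%. Ileum samples of that age had a ratio of 0.365. Both regions were below 1 at week 2, with ratios of 0.687 (duodenum) and 0.217 (ileum). The week 3 ratios were 7.66 and 3.48.

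**Figure D1:**
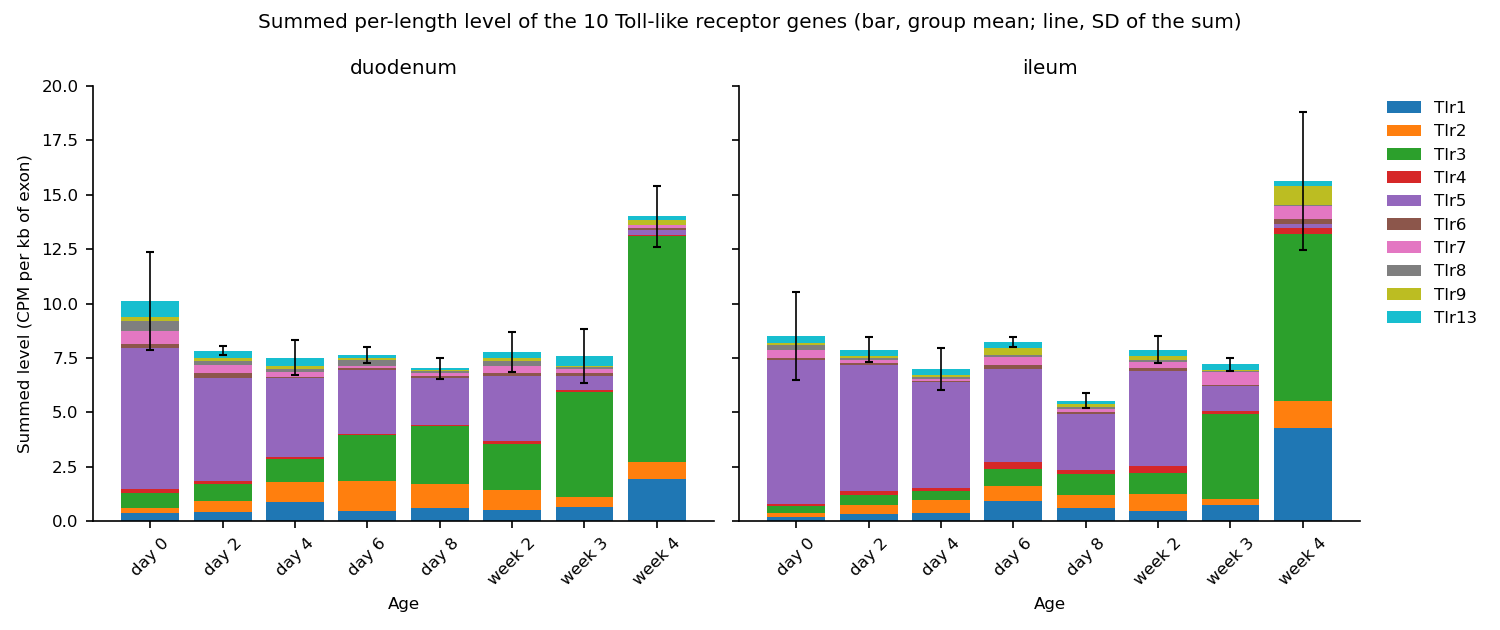
Stacked bars give the mean summed level of the 10 Toll-like receptor genes in CPM per kb of exon at each age, duodenum left and ileum right. Each bar is split in proportion to the mean percent share of each gene, and a line gives the SD of the sum over samples. Tlr5 takes 64.0% and 77.7% of the sum at day 0, and Tlr3 takes 74.3% and 49.2% at week 4.

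Across all ages, 8 of the 10 genes changed in the duodenum and 8 in the ileum (edgeR quasi-likelihood test, adjusted p under 0.05), where 67.4% and 58.7% of all tested genes did. Tlr1, Tlr2, Tlr3, Tlr4, Tlr5, Tlr7 and Tlr8 were called in both regions, Tlr13 in the duodenum and Tlr9 in the ileum. Tlr6 was called in neither. The ileum calls of Tlr4 and Tlr8 were each lost when single libraries were left out. For Tlr4 these were ileum day 0 samples 1 and 2 and week 2 sample 2 (edgeR adjusted p from 0.063 to 0.0826). For Tlr8 they were ileum day 0 samples 2 and 3, week 3 sample 1 and week 4 sample 2 (0.0509 to 0.42). Without the 5 libraries the age effect of Tlr7 in the duodenum (0.0605) and of Tlr8 in the ileum (0.0779) also missed the threshold. In whole tissue, fewer cells of a type and less RNA per cell cannot be told apart, which holds for every difference below.

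**Figure D2:**
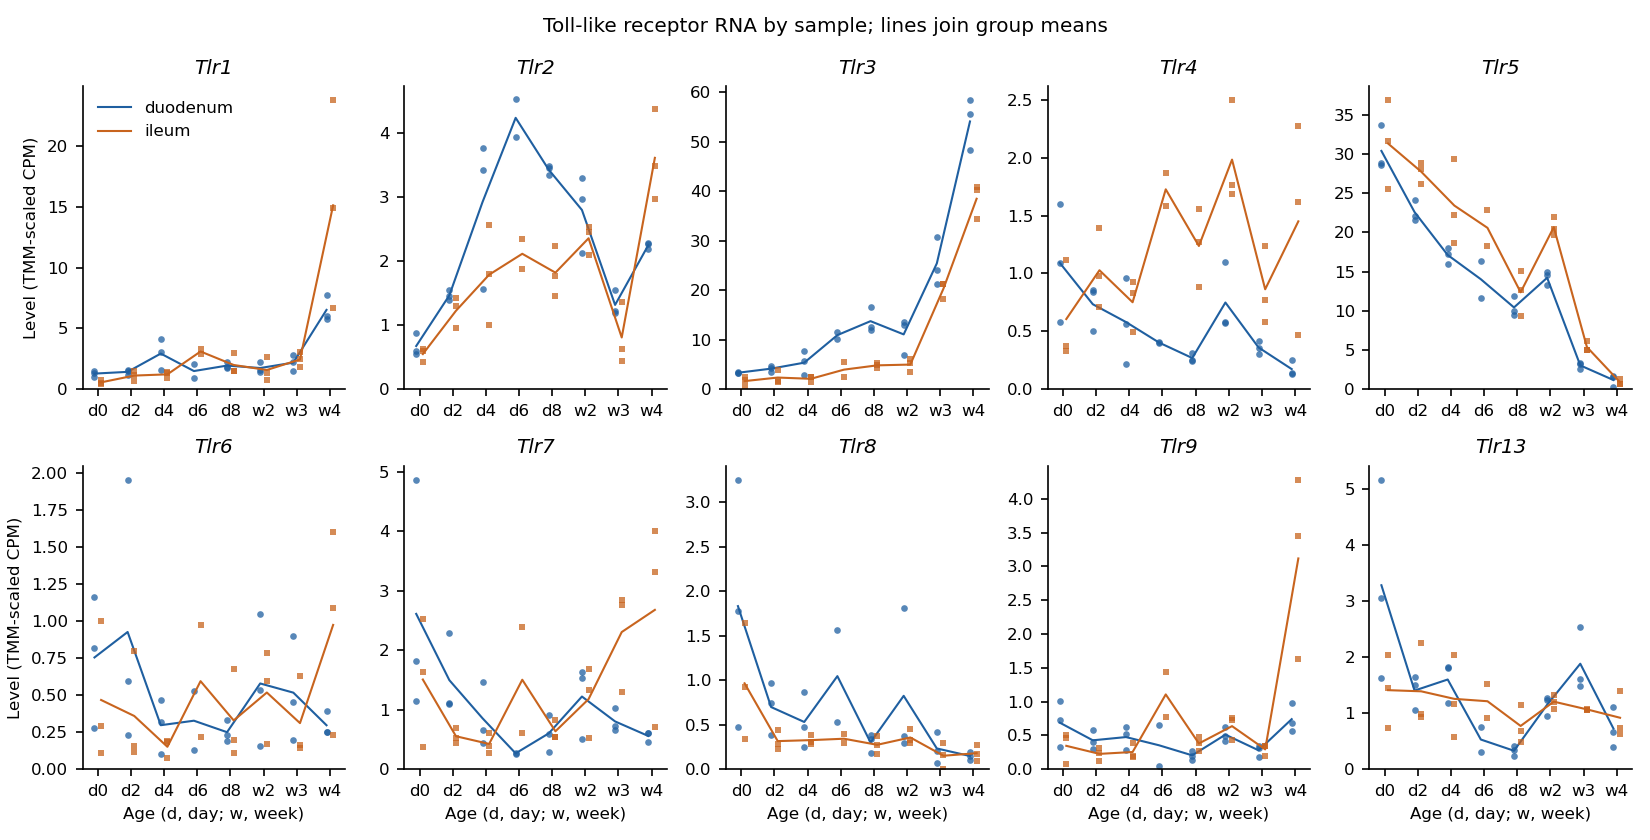
Each panel plots 1 receptor in CPM scaled by TMM against age, with 1 point per sample, duodenum in blue and ileum in orange, and lines through the group means. Tlr5 falls from 28.6 CPM or more in the duodenum at day 0 to 1.66 or less at week 4, and Tlr3 reaches 48.4 to 58.4 CPM there at week 4.

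From day 0 to week 4, 3 of the 10 genes rose and 5 fell in the duodenum, and 5 rose and 2 fell in the ileum. Of all genes, 40.5% changed in the duodenum (20.4% higher, 20.1% lower) and 41.9% in the ileum (21.5% higher, 20.4% lower). The median log2 fold change of the 10 genes was -1.76 in the duodenum, beside -0.02 over all genes, and 1.10 in the ileum, beside 0.08. Tlr1, Tlr2 and Tlr3 rose and Tlr5 and Tlr8 fell in both regions. Tlr4 fell in the duodenum and was higher in the ileum.

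**Figure D3:**
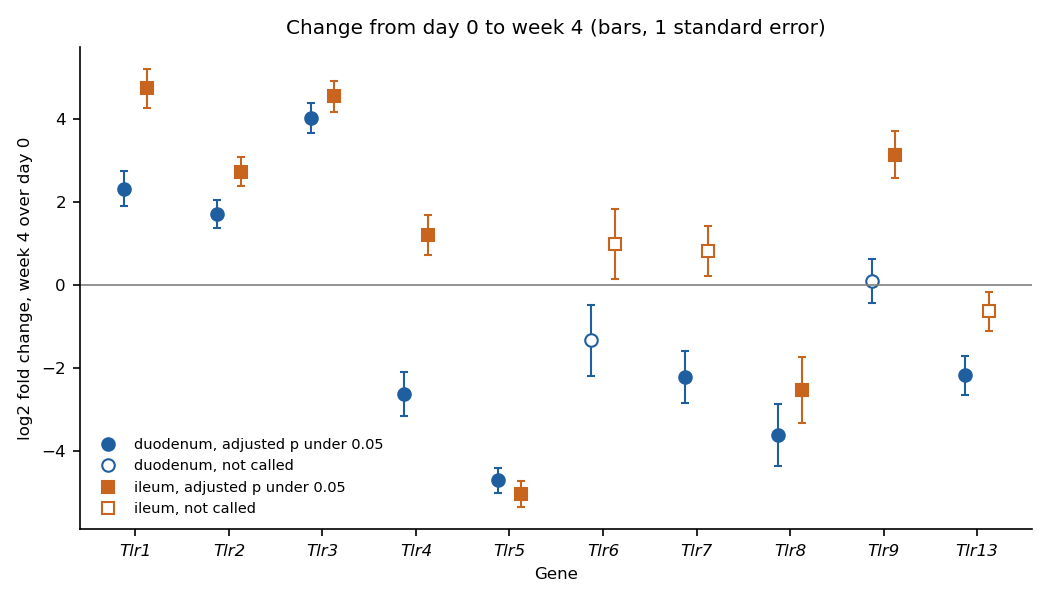
Points give the log2 fold change of each receptor from day 0 to week 4 with 1 standard error, circles for duodenum and squares for ileum, filled where the edgeR adjusted p is under 0.05. Tlr5 lies lowest at -4.71 and -5.05, Tlr3 is at 4.02 and 4.55, and Tlr4 is on opposite sides of 0 at -2.63 and 1.20.

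Tlr5, the receptor for bacterial flagellin, fell most of the 10. Its levels in the 3 duodenum samples were 28.6, 28.9 and 33.7 CPM at day 0, 11.8, 9.99 and 9.48 at day 8, and 13.2, 14.5 and 14.9 at week 2. They were 3.37, 2.55 and 3.21 CPM at week 3 and 0.339, 1.53 and 1.66 at week 4. The fall thus came in 2 stretches, over the first 8 days and again after week 2, with no overlap of samples between week 2, week 3 and week 4. The ileum followed the same order, with 25.5, 31.7 and 36.9 CPM at day 0, 19.7, 20.4 and 22.0 at week 2, 6.12, 4.97 and 5.06 at week 3, and 0.699, 1.3 and 0.668 at week 4. Week 4 was 26.3-fold below day 0 in the duodenum (log2 SE 0.30, edgeR adjusted p = 7.92e-16) and 33.1-fold below it in the ileum (log2 SE 0.31, adjusted p = 4.39e-16). The log2 changes were -4.90 and -4.95 without the 5 libraries that stood apart. Between week 2 and week 3 the log2 change was -2.22 in the duodenum (SE 0.26, edgeR adjusted p = 1.89e-08) and -1.94 in the ileum (adjusted p = 1.59e-07). The next week brought a further -1.40 (adjusted p = 0.000563) and -2.51 (adjusted p = 1.14e-07), the duodenum value missing the threshold in a model of these groups alone (0.0643). Averaged over ages the ileum was 0.33 higher on the log2 scale (SE 0.09, edgeR adjusted p = 0.00235). A change in the course of Tlr5 with age between regions was not called (interaction adjusted p = 0.342).

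Tlr3, the endosomal receptor for double-stranded RNA, rose in both regions. The duodenum samples held 3.41, 3.23 and 3.35 CPM at day 0, 12.0, 16.6 and 12.7 at day 8, and 6.83, 13.5 and 12.9 at week 2. They held 21.4, 24.1 and 30.9 CPM at week 3 and 48.4, 55.6 and 58.4 at week 4. Week 4 stood above week 3, and week 3 above every earlier age, with no overlap of samples. In the ileum the levels were 0.628, 2.46 and 1.85 CPM at day 0, 4.84, 4.31 and 5.35 at day 8, 18.3, 21.4 and 21.4 at week 3, and 40.9, 40.2 and 34.4 at week 4. Week 4 was 16.2-fold above day 0 in the duodenum (log2 SE 0.36, edgeR adjusted p = 1.14e-11) and 23.4-fold above it in the ileum (log2 SE 0.38, adjusted p = 1.37e-12). Averaged over ages Tlr3 was 1.01 lower in the ileum on the log2 scale (log2 fold change -1.01, SE 0.12), with the smallest edgeR adjusted p of the 10 genes for that comparison (4.97e-09). The difference was called at day 4, 6, 8 and week 2, at -1.34, -1.48, -1.51 and -1.15, and not at week 3 (-0.32, adjusted p = 0.53) or week 4 (-0.49, adjusted p = 0.238). The day 6 call was lost without ileum day 6 sample 2 (0.15), and the week 2 call without duodenum sample 2 (0.0561) or ileum sample 1 (0.0705). At day 0 the difference was called without ileum day 0 sample 2, at -1.37 (edgeR adjusted p = 0.0348).

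The rise of Tlr3 from week 2 to week 3 was called in both regions, with log2 changes of 1.20 (duodenum, edgeR adjusted p = 0.00611) and 2.02 (ileum, adjusted p = 7.96e-06). The duodenum call was lost without week 2 sample 1, whose Tlr3 level was the lowest of its group (adjusted p = 0.0666). Over the following week the log2 change was 1.09 in the duodenum (adjusted p = 0.0172) and 0.92 in the ileum (adjusted p = 0.042). That step in the ileum was lost when any 1 of its 6 samples was left out (edgeR adjusted p from 0.0595 to 0.153), and in the duodenum without week 3 sample 1 or 2 or week 4 sample 2 or 3 (0.0534 to 0.091). The day 0 to week 4 changes of Tlr3 were 3.96 and 4.79 without the 5 libraries that stood apart, and the last step was 1.05 and 0.86, neither called.

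Tlr2 binds bacterial lipopeptides as a pair with Tlr1 or Tlr6. Its level peaked early in the duodenum, from 0.554, 0.592 and 0.875 CPM at day 0 to 4.52 and 3.94 at day 6, and then 3.45, 3.48 and 3.33 at day 8. It was 2.12, 2.97 and 3.29 CPM at week 2, 1.18, 1.22 and 1.54 at week 3, and 2.19, 2.28 and 2.26 at week 4. The day 6 samples lay above all others and the day 0 samples below all others of the region. In the ileum Tlr2 was 0.591, 0.626 and 0.427 CPM at day 0, 1.76, 1.46 and 2.23 at day 8, 2.44, 2.52 and 2.09 at week 2, 1.36, 0.627 and 0.434 at week 3, and 2.97, 4.38 and 3.47 at week 4. Week 4 was there the highest age, with no overlap with the next. The log2 change from day 0 to week 4 was 1.71 in the duodenum (SE 0.33, edgeR adjusted p = 6.63e-05) and 2.73 in the ileum (SE 0.35, adjusted p = 3.42e-08), and 1.99 and 2.90 without the 5 libraries. Both regions fell from week 2 to week 3, by 1.09 in the duodenum (adjusted p = 0.0121) and 1.52 in the ileum (adjusted p = 0.000545). The duodenum step missed the threshold without week 2 sample 3 (0.0638), week 3 sample 1 (0.0575) or week 3 sample 2 (0.0502). The ileum rose again by 2.14 to week 4 (edgeR adjusted p = 1.22e-05), while the duodenum value was 0.77 (adjusted p = 0.106). Averaged over ages Tlr2 was 0.43 lower in the ileum on the log2 scale (SE 0.12, edgeR adjusted p = 0.00174).

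Tlr1, a partner of Tlr2 for triacylated lipopeptides, stayed low until week 3 and was high at week 4. The duodenum samples had 1.3, 1.05 and 1.51 CPM at day 0, 1.54, 2.23 and 2.8 at week 3, and 6.02, 5.78 and 7.78 at week 4. The ileum samples had 0.776, 0.501 and 0.427 CPM at day 0, 1.8, 3.04 and 2.51 at week 3, and 6.7, 14.9 and 23.8 at week 4. In each region the week 4 samples lay above those of every other age. The log2 change from day 0 to week 4 was 2.32 in the duodenum (SE 0.42, edgeR adjusted p = 1.85e-05) and 4.74 in the ileum (SE 0.47, adjusted p = 1.03e-10). Between week 3 and week 4 it was 1.58 (adjusted p = 0.0061, and 0.0559 without duodenum week 3 sample 1) and 2.63 (adjusted p = 1.1e-05). Tlr6, the other partner of Tlr2, was low throughout, between 0.0769 and 1.96 CPM, with 2 to 97 estimated counts. Its duodenum samples had 0.277, 0.82 and 1.17 CPM at day 0 and 0.391, 0.25 and 0.248 at week 4, and its ileum samples 0.111, 0.292 and 0.998 CPM and 0.233, 1.09 and 1.6. The ages overlapped in both regions, and edgeR called Tlr6 in none of the 24 tests. In a model of the compared groups alone its fall from day 0 to day 8 in the duodenum was called (adjusted p = 0.0261).

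Tlr4 binds lipopolysaccharide of gram-negative bacteria and is the receptor most studied in experimental necrotizing enterocolitis. Its duodenum samples had 0.582, 1.09 and 1.6 CPM at day 0, 0.402 and 0.404 at day 6, 0.242, 0.316 and 0.251 at day 8, and 0.13, 0.25 and 0.141 at week 4. The ileum samples had 0.369, 0.334 and 1.12 CPM at day 0, 1.87 and 1.59 at day 6, 0.88, 1.56 and 1.27 at day 8, 1.69, 2.5 and 1.76 at week 2, and 0.466, 1.61 and 2.27 at week 4. The regions overlapped at day 0, 2 and 4 and were apart at every age from day 6 on. The log2 change from day 0 to week 4 was -2.63 in the duodenum (SE 0.54, edgeR adjusted p = 0.000123), where the week 4 samples held 4 to 9 estimated counts. It was -2.08 without the 5 libraries (adjusted p = 0.0307). In the ileum the change was 1.20 (SE 0.48, edgeR adjusted p = 0.0431), with overlapping samples. That ileum call was lost without day 0 sample 1 (0.174), day 0 sample 2 (0.173), week 4 sample 2 (0.106) or week 4 sample 3 (0.29), and without the 5 libraries (0.056). The ileum exceeded the duodenum by 1.26 on the log2 scale averaged over ages (SE 0.18, edgeR adjusted p = 1.55e-07) and by 3.02 at week 4 (SE 0.54, adjusted p = 0.000108).

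Tlr7 and Tlr8 are endosomal receptors for single-stranded RNA, encoded side by side on the X chromosome. Tlr7 in the duodenum was 1.14, 1.82 and 4.87 CPM at day 0, 0.276 and 0.253 at day 6, and 0.6, 0.612 and 0.46 at week 4. In the ileum it was 0.369, 1.63 and 2.52 CPM at day 0, 2.76, 2.85 and 1.3 at week 3, and 0.699, 3.32 and 4.01 at week 4. The day 0 samples were widely spread in both regions. The log2 change of Tlr7 from day 0 to week 4 was -2.23 in the duodenum (SE 0.63, edgeR adjusted p = 0.00416) and 0.81 in the ileum (SE 0.60, adjusted p = 0.281). The duodenum call was lost without day 0 sample 3 (-1.34, adjusted p = 0.108) and without the 5 libraries (-1.09, adjusted p = 0.378). Tlr8 in the duodenum was 0.471, 1.78 and 3.24 CPM at day 0 and 0.104, 0.195 and 0.141 at week 4, and in the ileum 0.333, 0.919 and 1.64 CPM and 0.175, 0.0931 and 0.267. It thus ended below its day 0 samples in both regions. Its log2 change was -3.62 in the duodenum (SE 0.75, edgeR adjusted p = 0.000144) and -2.54 in the ileum (SE 0.79, adjusted p = 0.00926). The duodenum value was -1.93 without the 5 libraries (edgeR adjusted p = 0.21), and the ileum call was lost without day 0 sample 3 (0.0831) or week 4 sample 2 (0.0641). Samples with Ddx3y but no Xist, 14 of the 46, were found at neither day 6, day 8 nor week 4, and the part of sex in these X-linked levels at those ages cannot be told apart from age.

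Tlr9, the endosomal receptor for unmethylated CpG DNA, rose late in the ileum. Its ileum samples had 0.0739, 0.459 and 0.499 CPM at day 0, 0.2, 0.338 and 0.338 at week 3, and 1.63, 3.44 and 4.28 at week 4. The duodenum samples had 0.333, 0.729 and 1.0 CPM at day 0, 0.34, 0.314 and 0.18 at week 3, and 0.678, 0.973 and 0.566 at week 4. In the ileum week 4 stood apart from all other ages, and in the duodenum it overlapped day 0. The log2 change from day 0 to week 4 was 3.14 in the ileum (SE 0.56, edgeR adjusted p = 1.76e-05) and 0.10 in the duodenum (SE 0.53, adjusted p = 0.908). From week 3 to week 4 it was 3.41 in the ileum (SE 0.59, edgeR adjusted p = 4.33e-05) and 1.40 in the duodenum (adjusted p = 0.0923). The ileum change from day 0 was 3.58 with the 5 libraries left aside (edgeR adjusted p = 8.05e-05).

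Tlr13, an X-linked receptor for bacterial ribosomal RNA that humans lack, fell early in the duodenum. Its samples had 1.64, 3.05 and 5.17 CPM at day 0, 0.417, 0.337 and 0.228 at day 8, 0.956, 1.27 and 1.23 at week 2, 1.49, 2.55 and 1.62 at week 3, and 0.391, 1.11 and 0.672 at week 4. Day 8 was thus a low point from which it rose again. In the ileum it was 0.739, 2.05 and 1.45 CPM at day 0 and 1.4, 0.621 and 0.735 at week 4, overlapping, with no effect of age called (edgeR adjusted p = 0.60). In the duodenum the log2 change was -3.32 from day 0 to day 8 (edgeR adjusted p = 8.64e-07), 1.80 from day 8 to week 2 (adjusted p = 0.00994) and -2.18 from day 0 to week 4 (SE 0.46, adjusted p = 0.000204). The rise from day 8 missed the threshold without day 8 sample 3 (0.0534), and the change to week 4 was -1.64 without the 5 libraries (adjusted p = 0.0477). From week 3 to week 4 it was -1.37 (edgeR adjusted p = 0.0432), a call lost without any single 1 of the week 3 samples or without week 4 sample 1 or 3 (0.0551 to 0.174).

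Between day 0 and day 8, 8 of the 10 genes changed in the duodenum, Tlr2 and Tlr3 rising and Tlr4, Tlr5, Tlr7, Tlr8, Tlr9 and Tlr13 falling, beside 41.2% of all genes. In the ileum 4 changed, Tlr1, Tlr2 and Tlr3 rising and Tlr5 falling, beside 19.3%. Without the 5 libraries 4 were called in the duodenum, and the falls of Tlr4 (-1.09), Tlr7 (-0.91), Tlr8 (-0.64) and Tlr9 (-0.69) were not. Those of Tlr7 and Tlr9 were also lost without day 0 sample 3 alone (edgeR adjusted p = 0.109 and 0.0924), and that of Tlr9 without day 8 sample 3 (0.0579). From day 8 to week 2, Tlr4 and Tlr13 rose in the duodenum (2 of 10, beside 15.7% of all genes). The Tlr4 call, at 1.45 and an adjusted p of 0.044, was lost without any 1 of the day 8 samples or week 2 sample 1 (0.0837 to 0.267). In the ileum edgeR called none, beside 6.64%, with 1 gene at an unadjusted p under 0.05 and 1 called by DESeq2. From week 2 to week 3, 3 of 10 changed in each region, Tlr3 rising and Tlr2 and Tlr5 falling, beside shares of 18.3% (duodenum) and 26.8% (ileum) over all genes. Between week 3 and week 4, 4 changed in the duodenum (Tlr1 and Tlr3 higher, Tlr5 and Tlr13 lower, beside 12.7%) and 5 in the ileum (Tlr1, Tlr2, Tlr3 and Tlr9 higher, Tlr5 lower, beside 16.1%).

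The regional comparison asked which receptors differed between the ends of the small intestine. Averaged over ages, 5 of the 10 differed, beside 62.1% of all genes. Tlr4 and Tlr5 were higher in the ileum, and Tlr2, Tlr3 and Tlr8 lower, Tlr8 by 0.76 on the log2 scale (SE 0.27, edgeR adjusted p = 0.0145, and 0.167 without the 5 libraries). Without them Tlr7 was called as well, 0.60 higher in the ileum (adjusted p = 0.029). At day 0 and day 2 edgeR called none, beside 6.1% and 8.01% of all genes, with 3 and 2 genes at an unadjusted p under 0.05. DESeq2 called Tlr3 at day 0 (adjusted p = 0.0473) and no gene at day 2. At day 4, Tlr1 and Tlr3 were lower in the ileum, 2 of 10 beside 26.6% of all genes. The Tlr1 call was lost without duodenum sample 2 (0.136), ileum sample 1 (0.0558) or ileum sample 3 (0.106). At day 6, 4 genes differed beside 35.3%, Tlr4 and Tlr7 higher in the ileum and Tlr2 and Tlr3 lower, with 2 samples in each group. The day 6 Tlr2 call was lost without any 1 of the 4 samples (0.0838 to 0.235), that of Tlr7 without either duodenum sample or ileum sample 2 (0.0798 to 0.43), and that of Tlr4 without duodenum sample 2 (0.0531).

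At day 8, 3 of 10 differed beside 39.6%, Tlr4 higher in the ileum by 2.19 (edgeR adjusted p = 0.000802) and Tlr2 and Tlr3 lower. The Tlr2 difference, -0.91, was lost without ileum sample 1 (0.0562) or 2 (0.0908). At week 2, Tlr4 was higher and Tlr3 lower in the ileum, 2 of 10 beside 22.4%. The Tlr4 difference, 1.41, was lost without duodenum sample 2 or 3 or ileum sample 2 (0.108 to 0.116). At week 3 Tlr5 alone was called, at 0.82 (edgeR adjusted p = 0.0311), beside 14.2% of all genes. This was lost without any 1 of the 3 duodenum samples or ileum sample 1 or 3 (0.0515 to 0.133). At week 4, 4 of 10 were higher in the ileum, beside 28.4% of all genes. They were Tlr4 at 3.02, Tlr7 at 2.25 (SE 0.64, edgeR adjusted p = 0.00879), Tlr9 at 2.07 (SE 0.53, adjusted p = 0.00415) and Tlr1 at 1.21 (SE 0.39, adjusted p = 0.02). The week 4 Tlr1 difference was lost without duodenum sample 1 (0.0704), duodenum sample 2 (0.0635) or ileum sample 3 (0.261), and that of Tlr7 without ileum sample 3 (0.0605). Without the 5 libraries all 4 were called, at 3.75, 2.73, 2.58 and 1.44.

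**Figure D4:**
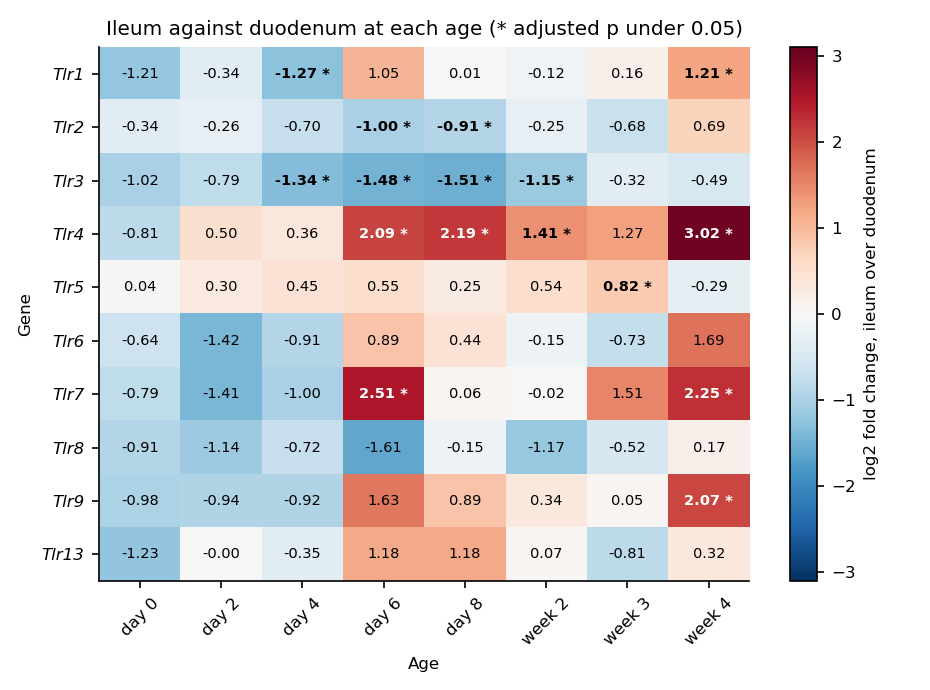
Cells give the log2 fold change of ileum over duodenum for each receptor (vertical) at each age (horizontal), red where the ileum is higher and blue where it is lower, with a star where the edgeR adjusted p is under 0.05. Tlr3 is negative at all 8 ages, and Tlr4 reaches 3.02 at week 4.

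The interaction of region and age, which asks whether the course with age differed between duodenum and ileum, was called for 4 of the 10 genes, Tlr1, Tlr4, Tlr7 and Tlr9, beside 22.4% of all genes. The change from day 0 to week 4 differed between regions for the same 4, beside 5.99% of all genes, each with the more positive log2 change in the ileum. The differences of log2 change were 2.42 for Tlr1 (SE 0.59, edgeR adjusted p = 0.0115), 3.83 for Tlr4 (SE 0.72, adjusted p = 0.00107), 3.05 for Tlr7 (SE 0.86, adjusted p = 0.0301) and 3.05 for Tlr9 (SE 0.76, adjusted p = 0.0135). Without the 5 libraries only Tlr4 was called, at 3.35 (adjusted p = 0.0281), with Tlr1 at 2.56 (0.0577), Tlr7 at 2.33 (0.214) and Tlr9 at 2.69 (0.142). Of single libraries, ileum week 4 sample 3 ended the Tlr1 call (0.0709), and duodenum day 0 sample 3 or ileum day 0 sample 1 the Tlr9 call (0.0568 and 0.0543). The Tlr7 call was lost without duodenum day 0 sample 3 (0.13), duodenum week 4 sample 1 (0.0595) or 3 (0.0714), ileum day 0 sample 1 (0.0954), or ileum week 4 sample 2 (0.0551) or 3 (0.102). The fall of Tlr5 and the rise of Tlr3 differed between regions by -0.33 (SE 0.41, edgeR adjusted p = 0.644) and 0.53 (SE 0.47, adjusted p = 0.513). Their 95% intervals, from the SE and the normal distribution, run from -1.13 to 0.46 and from -0.40 to 1.46. For the step from week 2 to week 3 edgeR called no receptor, beside 1.38% of all genes, with none at an unadjusted p under 0.05 and none called by DESeq2.

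Markers of cell types in the wall moved over the same ages. The B cell list, 7 genes that include Ms4a1 and Pax5, rose from day 0 to week 4 in full in both regions (7 of 7 called), and 6 of 7 were higher in the ileum at week 4. Its summed level was 1.66 to 2.41 CPM at day 0 and 34.0 to 44.0 at week 4 in the duodenum. In the ileum it was 1.07 to 1.76 CPM at day 0 and 86.6, 169.9 and 297 at week 4, in the order of samples in which Tlr1 was 6.7, 14.9 and 23.8 CPM and Tlr9 1.63, 3.44 and 4.28. The ileum sample with the most B cell RNA thus also had the most Tlr1 and Tlr9. That order was not particular to them. Tlr4, Tlr6 and Tlr7 had it, and so did the plasmacytoid dendritic cell, dendritic cell, neutrophil and endothelial lists. A list of 4 regional genes (Pdx1, Gata4, Fabp6 and Slc10a2) had it too, at 187, 1922 and 2243 CPM. Tlr2, Tlr3, Tlr5, Tlr8 and Tlr13 did not, nor did the macrophage, epithelial, Paneth cell, T cell, mesenchymal, smooth muscle and pancreatic acinar cell lists. Sample 1, the lowest in that order, is among the 5 libraries set apart. At week 3 the B cell list stood at 3.70 to 4.604 CPM for the duodenum and 6.12 to 15.4 in the ileum. No gene of the B cell list was at 0 in all samples of a group at these ages. The T cell list (6 genes) also rose, 5 of 6 in the duodenum and 6 of 6 in the ileum, and 4 of 4 tested genes of the plasmacytoid dendritic cell list, a cell type known for Tlr7 and Tlr9, rose in both. The part of these lists in the receptor differences was not tested.

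The macrophage list (10 genes, among them Csf1r and C1qa) fell for 8 of 10 in the duodenum and 4 of 10 in the ileum from day 0 to week 4. It summed to 288 to 318 CPM in the duodenum at day 0, 140 to 152 at day 8 and 154 to 224 at week 4, and to 230 to 252, 202 to 237 and 105 to 180 CPM in the ileum. The neutrophil list (9 genes) fell for 7 and 4 genes. It had 15.3, 25 and 51.9 CPM in duodenum day 0 samples 1 to 3. At week 4 it had 4.17 to 6.56 CPM there, and Camp was at 0 in all 3 samples. Of the 10 receptors 8, all but Tlr1 and Tlr3, also rank in that day 0 order. So do the macrophage, dendritic cell, plasmacytoid dendritic cell, T cell, endothelial and mesenchymal lists. The pancreatic acinar cell list (19.2, 33.8 and 47.5 CPM) and the list of 4 regional genes (122.6, 130 and 143.2 CPM) rank so too. The epithelial, Paneth cell, B cell and smooth muscle lists do not. The share of all genes with that order was not counted. The endothelial list (5 genes) was 99.0, 150 and 195 CPM in those day 0 samples and 8.21 to 9.0 at week 4, with 5 of 5 genes lower, and in the ileum 46.0, 152 and 205 CPM and 12.6 to 42.1. Samples 2 and 3 of duodenum day 0 are the ones that carried both Xist and Ddx3y. The epithelial list (8 genes, such as Epcam and Vil1) went the other way, with 7 genes higher in each region and 1 lower in the ileum. Its sum was 3840 to 4129 CPM in the duodenum at day 0 and 8783 to 12240 at week 4, ages between which Tlr5 fell and Tlr3 rose. The Paneth cell list (6 genes) rose in full in both regions, from 85.3 to 111 CPM in the duodenum and 55.1 to 84.7 in the ileum at day 0 to 2226 to 3732 and 2329 to 4226 at week 4. Mesenchymal markers (6 genes) were higher in the ileum in full at day 6 and day 8 and for 3 of 6 at week 4, ages at which Tlr4 was also higher there. Their sum was 23.1 to 66.5 CPM in the duodenum and 207.5 to 437 in the ileum at day 8, and 22.0 to 80.4 and 100.8 to 224 at week 4. The mesenchymal sum was also higher in the ileum at ages when Tlr4 overlapped between regions. It was 103.7 to 187.7 CPM in the duodenum and 211.3 to 305.8 in the ileum at day 0. At day 4 it was 6.08 to 90.25 and 132.4 to 516 CPM. The endothelial sum was higher in the ileum at every age from day 6 on, with no overlap of samples. At day 8 it was 7.69 to 12.6 CPM in the duodenum and 51.4 to 63.0 in the ileum. It overlapped at day 0 and day 4 and was lower in the ileum at day 2. At day 6 and day 8 the macrophage, neutrophil, dendritic cell and plasmacytoid dendritic cell sums were also higher in the ileum, and the epithelial sum was lower. Smooth muscle markers were higher in the ileum for 5 of 5 at day 6 and day 8, summing to 4.53 to 6.92 CPM in the duodenum and 30.4 to 79.0 in the ileum at day 8, and for 4 of 5 at week 4. In the dendritic cell list (6 genes) 3 rose in the ileum from day 0 to week 4 (3.14 to 9.14 CPM, then 7.98 to 15.5), and 1 fell in the duodenum (6.49 to 10.4 CPM, then 5.27 to 6.84). No gene of the mesenchymal, smooth muscle or dendritic cell list was at 0 in all samples of a group at day 0, day 8 or week 4. The part of these cell types in the receptor levels was not tested.

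**Figure D5:**
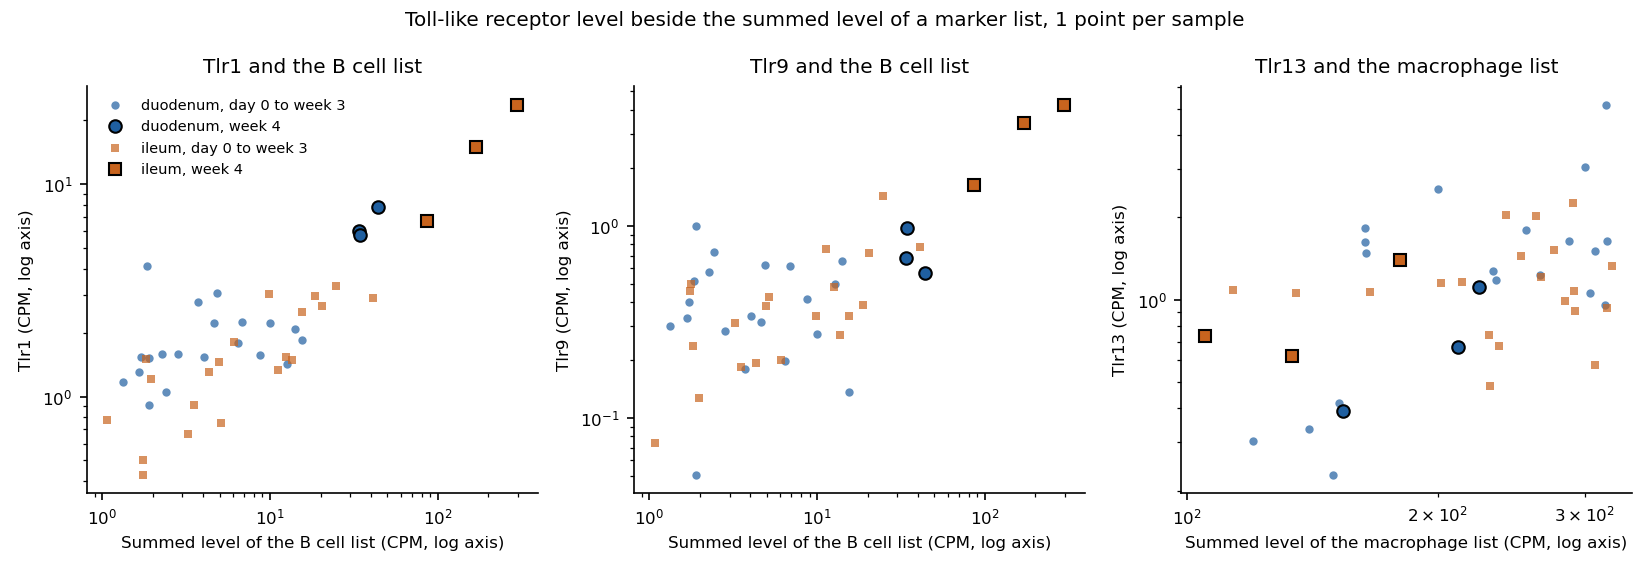
Each point is 1 sample, with the summed CPM of a marker list on a log axis (horizontal) and a receptor's CPM on a log axis (vertical), circles for duodenum, squares for ileum and larger outlined symbols for week 4. The 3 week 4 ileum samples lie at the upper right for Tlr1 and Tlr9 against the B cell list, which reaches 86.6, 169.9 and 297 CPM there.

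Other genes of the pathway were taken from 6 lists. Among 9 co-receptors and chaperones, 3 rose and 2 fell in the duodenum and 5 rose and 1 fell in the ileum from day 0 to week 4. Cd14, which hands lipopolysaccharide to Tlr4, rose by 1.94 and 3.37 on the log2 scale, Cd180, a Toll-like protein of B cells, by 1.33 and 4.77, and Cd36, a fatty acid carrier and Tlr2 co-receptor, had changes of -2.44 and -3.95. Of 18 adaptors and kinases, 3 rose and 4 fell in the duodenum and 5 rose and 4 fell in the ileum. The kinase genes Irak4 (0.68 and 0.57) and Ikbke (0.69 and 0.83) were higher and the adaptor Tirap lower (-0.82 and -0.67), all smaller than the called changes of the receptors. Among 8 transcription factors 6 and 5 rose and none fell, with Relb at 3.21 and 3.15, Rel at 0.94 and 2.15, and Nfkb1 at 0.80 and 0.95. Of 10 brakes on the pathway, 4 rose and 1 fell in the duodenum and 6 rose and 2 fell in the ileum, where Socs1 changed by 3.42 and 3.83, Zc3h12a, an RNase for cytokine messages, by 1.91 and 3.13, and Il1rl1 by -3.78 and -1.44. Of 11 target genes 8 could be tested, of which 3 rose and 1 fell in the duodenum and 4 rose in the ileum. Nos2, the inducible nitric oxide synthase, went from 0.275 ± 0.0911 CPM at day 0 to 14.3 ± 22.7 at week 4 in the duodenum (SD, n = 3). Its ileum values were 0.513 ± 0.135 and 230 ± 114 CPM (SD, n = 3). Its log2 change was 5.79 in the duodenum (SE 0.97, edgeR adjusted p = 1.13e-05) and 8.83 in the ileum (SE 1.00, adjusted p = 1.08e-08). Tnf changed by 3.54 and 6.00 and Cxcl10 by 2.12 and 1.93. Of the other mouse receptors Tlr11 and Tlr12, 1 could be tested. It was not called from day 0 to week 4 in either region, while its age effect was called in both. All genes named from the lists were called in both regions, and background shares are those given for the same comparisons.

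The genes whose 16 group means of log2 CPM ran most like each receptor were found among 11366 genes, as a description over groups that share libraries and ages. Tlr5 ran closest to Thsd4 (r = 0.98), Acot3 and Homer3, and Tlr3 to Ttc39b (r = 0.97), Itga6 and Bcl2l14. For Tlr9 they were Nckap1l (r = 0.98), Laptm5 (0.95) and Cd53 (0.94), and for Tlr1 Ssh2 (0.93), Rac2 and H2-Q7. For Tlr13 they were C1qb (0.90), Msr1 (0.88) and Mpeg1 (0.86), and for Tlr7 Mrc1 (0.82), Rasl12 and Mfhas1, where C1qb and Mrc1 are genes of the macrophage list. The whole list did not run with Tlr7 in the ileum. Its mean sum was lowest there at week 3 and week 4 (138 and 140 CPM). The Tlr7 means were highest at those ages (2.30 and 2.68 CPM). Tlr2 ran closest to Tra2a (0.93), Tcf7 and Tmtc4, Tlr4 to Vmn2r24 (0.90), Naip3 and Naip6, and Tlr8 to Cfi (0.90), Zfp46 and Ccdc149. Tlr6 had the weakest neighbours, Runx1 at 0.74, then Wdr13 and Ms4a6b. Between receptors, r over the 16 group means was -0.92 for Tlr3 and Tlr5, -0.85 for Tlr1 and Tlr5, 0.77 for Tlr1 and Tlr3, and 0.75 for Tlr1 and Tlr9.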

How the data were processed

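Per the file names, the authors summarised transcript estimates to genes with tximport, and the deposited values are estimated counts per gene, already whole numbers, for 48 samples. STAR 2.6.1d, Salmon 0.14.2, DESeq2 1.30.1 and mm10 stand in the submitters' processing notes. The deposited normalized tables hold a scaled signal in 40 columns, each the estimated count divided by one factor, and served only for gene symbols (51106 identifiers). Exon lengths came from GENCODE M21, which holds 54409 of the identifiers.

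Counts of 46 samples were fitted with edgeR 4.0.16 in R 4.3.3 (filterByExpr, TMM, robust quasi-likelihood, a mean for each group). Contrasts between these gave 24 tests, with p-values adjusted by the Benjamini-Hochberg method over 21986 genes and called under 0.05. Standard errors are the absolute log2 fold change over the root of F. CPM is the count scaled to a common library size after TMM, and correlations used log2 CPM with a prior count of 2. Procedures were tested on simulated data.

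The members and gene lists were chosen with earlier results of these data known. All 10 members are named. From each pathway list up to 3 genes are named, those called in both regions with one sign and the largest mean change from day 0 to week 4, and for each member the 3 genes with the most similar group means, at a mean log2 CPM of at least 1. Alternatives were RLE size factors, no low-count filter, a mean count of at least 10, DESeq2 1.42.0, the compared groups alone, a replicate block, a sex index from Xist and Ddx3y, no day 4 samples (absent from the normalized tables), all 48 samples and each sample left out. Leaving aside 5 libraries that stood apart was chosen after seeing the data. No 2 samples of the same group were alike within counting noise, and pairs from different groups were not compared. One gene of the B cell list is not reported here and was left out of its sums and counts.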

Additional observations from a re-analysis of the deposited data

Results flagged for a closer look

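Receptors whose course with age differed between duodenum and ileum, by the edgeR interaction test, were Tlr1 (adjusted p = 0.0103), Tlr4 (adjusted p = 0.00253), Tlr7 (adjusted p = 0.00524) and Tlr9 (adjusted p = 0.0123). The change from day 0 to week 4 differed for the same 4 genes, with adjusted p of 0.0115 for Tlr1, 0.00107 for Tlr4, 0.0301 for Tlr7 and 0.0135 for Tlr9. Without the 5 libraries that stood apart the last difference was called for Tlr4 alone (edgeR adjusted p = 0.0281).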

How the results depend on the processing

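No called result reversed under any alternative run. Over 240 results of single receptors, DESeq2 kept 230 and added 10 calls, and RLE size factors kept 237 and added 3. The count floor of 10 kept 235, no filter 232 (7 calls lost), the sex index 233, and all 48 samples 224 (16 lost). Leaving aside the 5 libraries kept 220, with 17 calls lost and 3 gained. The compared groups alone kept 189 of 210 (13 gained, 8 lost), and fits without day 4 kept 220 of 230 (10 gained). Leaving out 1 sample kept 2559 of 2680. Of 23 pairs of duodenum and ileum samples with the same age and number, 16 deviated from their group means with r over 0.1 and 17 correlated best with their own number (mean r = 0.16, from -0.36 to 0.67, against -0.079 for other numbers). Deviations sum to 0 within a group, so the mean for other numbers is no independent contrast. At day 6, with 2 samples per group, the 2 same-number pairs have the same r by construction. The same-number values are a hint of pairing from the data. The labels do not state it and not every pair passes 0.1, so the fit without the block was kept. With the replicate block 232 results were kept, 6 gained and 2 lost, and the count of regional calls over the 8 ages went from 16 to 21, adding Tlr1 and Tlr9 at day 6, Tlr13 at day 8, Tlr5 at week 2 and Tlr7 at week 3. It was 8 and 7 for the age effect in duodenum and ileum, 5 for the interaction of region and age, and 4 for the ileum step from week 3 to week 4. Counts of receptors called moved as follows. From day 8 to week 2 in the duodenum, 2 became 1 with no filter or all 48 samples and 4 with the compared groups alone. In the ileum 0 became 1 with a mean count of 10, without day 4, with DESeq2 and with the compared groups alone. With all 48 samples, week 4 against week 3 in the duodenum went from 4 to 2, regional calls from 16 to 10, and the interaction from 4 to 1. The interaction with week 4 against day 0 went from 4 to 2 with the compared groups alone and to 1 without the 5 libraries, and day 8 against day 0 in the duodenum from 8 to 4 without them. With 1 sample left out, counts ran from 8 to 9 and 6 to 8 for the age effect (duodenum, then ileum), 7 to 8 and 5 to 7 for week 4 against day 0, 6 to 8 and 4 to 5 for day 8 against day 0, 0 to 2 and 0 to 1 for week 2 against day 8, 2 to 4 and 3 to 4 for week 3 against week 2, and 1 to 3 and 4 to 4 for week 4 against week 3. They ran from 5 to 6 averaged over ages, 13 to 17 at each age, 4 to 6 for the interaction, 2 to 4 for its week 4 part and 0 to 0 for its week 3 part. The cause was not tested. Shares over all genes under these alternatives are not given, so the shifts cannot be read as particular to the receptors. Tlr6, Tlr8 and Tlr9 were under 1 CPM in 41 of 46 samples each and Tlr4 in 31.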

Other observations

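In the day 6 samples numbered 3, which were left out, the library labelled duodenum had 4.11 CPM of Tlr3, 21.4 of Tlr5, 1.29 of Tlr4 and 1.12 of Tlr9. The library labelled ileum had 9.68 CPM of Tlr3, 11.6 of Tlr5, 0.554 of Tlr4 and 0.341 of Tlr9. The other day 6 samples had 10.2 and 11.7 CPM of Tlr3 in the duodenum and 2.46 and 5.47 in the ileum.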
